A study of Mus musculus with 6 samples.

Results

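The cholesterol and fatty acid synthesis genes described here are 32 genes picked by name from the textbook pathway, with earlier results of these data known. Each was found by its Ensembl gene identifier among the 24016 genes of the expression table. They comprise 18 enzymes of sterol synthesis, 6 genes that control sterol levels or carry sterols, and 8 enzymes of fatty acid synthesis, elongation and desaturation. RNA-seq was performed on MC3T3-E1 subclone 4 cells, a clonal mouse preosteoblast line labelled wild type, in 3 vehicle and 3 corticosterone libraries. All cultures grew in medium with 10% serum and were differentiated for 6 days with β-glycerophosphate at 10 mM and ascorbic acid at 50 μg/ml. Corticosterone, an adrenal steroid that activates the glucocorticoid receptor, was then added to the treated cells at 100 nM for 24 h with 10 nM calcitriol present, and the labels give the same protocol text for the vehicle cells. Cells were at passages 4 to 10 by the growth protocol and 6 to 12 by the batch label, the study's methods give another range, and the passage of each library is not analysed here. The labels call the libraries biological replicates without naming separate cultures, so the tests measure the spread between these 6 libraries, which may be partly technical.

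Cells build cholesterol from acetyl-CoA through mevalonate, the isoprenoid diphosphates, squalene and lanosterol, while the fatty acid branch starts from cytosolic acetyl-CoA and malonyl-CoA. Both branches are transcribed under the SREBP factors, membrane proteins that the escort SCAP carries out of the endoplasmic reticulum when sterols are low and that INSIG proteins hold back when sterols are plentiful. In osteoblasts, these lipids supply membranes for a secretory cell that exports large amounts of collagen.

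Promoter sequence was examined because the members share this transcriptional control. RefSeq start sites on GRCm38.p6 gave a 300-base window, from 250 bases before to 50 bases after the start, for 25 of the 32 members, with 33 windows in all. Fdps, Fdft1, Sqle, Stard4, Scd1, Scd2 and Fads1 had no entry. The 250 bases before the start are shown for the 3 sterol enzymes with the largest decreases below, for both INSIG genes and for the fatty acid enzymes with the largest change in each direction. Capitals mark a CCAAT box, written ATTGG where it lies on the other strand, and in Hmgcs1 also the sterol regulatory element TCACNCCAC. Each is written 5′ to 3′ on the gene's own strand.
Hmgcs1, chr13:119690101-119690350, plus strand: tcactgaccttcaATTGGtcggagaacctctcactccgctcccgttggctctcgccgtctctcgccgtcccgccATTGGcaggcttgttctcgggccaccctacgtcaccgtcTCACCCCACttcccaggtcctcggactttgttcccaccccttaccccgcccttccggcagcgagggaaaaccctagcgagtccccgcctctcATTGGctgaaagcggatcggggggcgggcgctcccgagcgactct
Cyp51, chr5:4104698-4104947, minus strand: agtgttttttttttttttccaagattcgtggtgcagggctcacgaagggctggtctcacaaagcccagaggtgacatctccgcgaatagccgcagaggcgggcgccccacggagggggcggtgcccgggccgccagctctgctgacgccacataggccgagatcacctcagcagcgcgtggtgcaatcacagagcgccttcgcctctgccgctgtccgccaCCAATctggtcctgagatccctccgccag
Tm7sf2, chr19:6067851-6068100, minus strand: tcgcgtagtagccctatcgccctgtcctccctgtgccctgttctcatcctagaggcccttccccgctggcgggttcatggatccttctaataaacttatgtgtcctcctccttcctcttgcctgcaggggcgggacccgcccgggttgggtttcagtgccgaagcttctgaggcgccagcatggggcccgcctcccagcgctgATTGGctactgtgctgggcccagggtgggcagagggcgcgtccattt
Insig1, chr5:28071162-28071411, plus strand: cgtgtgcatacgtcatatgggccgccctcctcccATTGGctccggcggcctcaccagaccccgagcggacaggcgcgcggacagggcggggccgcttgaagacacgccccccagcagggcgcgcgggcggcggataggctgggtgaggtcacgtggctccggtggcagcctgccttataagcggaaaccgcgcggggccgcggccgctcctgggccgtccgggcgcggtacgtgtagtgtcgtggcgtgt
Insig2, chr1:121332590-121332839, minus strand: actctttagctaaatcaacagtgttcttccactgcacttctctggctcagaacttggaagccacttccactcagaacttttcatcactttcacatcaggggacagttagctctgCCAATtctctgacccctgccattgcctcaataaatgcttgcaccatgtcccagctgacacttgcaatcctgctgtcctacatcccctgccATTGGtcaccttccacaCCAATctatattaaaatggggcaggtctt
Fads2, chr19:10101504-10101753, minus strand: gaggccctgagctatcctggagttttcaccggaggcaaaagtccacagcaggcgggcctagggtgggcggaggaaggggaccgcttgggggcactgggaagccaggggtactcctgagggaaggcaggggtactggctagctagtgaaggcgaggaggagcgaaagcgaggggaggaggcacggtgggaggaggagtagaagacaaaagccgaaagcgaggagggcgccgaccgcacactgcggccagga
Elovl6, chr3:129532136-129532385, plus strand: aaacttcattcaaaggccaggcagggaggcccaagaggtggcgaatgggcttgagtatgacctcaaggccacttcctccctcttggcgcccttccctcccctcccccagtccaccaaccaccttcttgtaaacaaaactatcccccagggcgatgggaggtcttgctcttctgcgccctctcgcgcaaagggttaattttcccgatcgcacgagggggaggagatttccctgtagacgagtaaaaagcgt

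The CCAAT box, searched on both strands of the full 300-base windows, was found in 20 of the 25 members with a window (80%), against 41.1% of 27025 genes in the same table. The 27025 genes were not matched to the members for expression or type of promoter. A gene with several windows counted once if any of them held the motif. By window, the box was in 21 of 33 member windows (63.6%) and in 37.4% of all 32851. The sterol branch carried most of these matches, since 14 of its 15 enzymes with a window held the box (93.3%), as did 4 of 5 control genes, while 2 of 5 fatty acid genes held it (40%). Mvk had the most, with 5 matches in its window. Hmgcs1 had 4, of which the fourth lies 10 bases after the start and outside the stretch printed above. The element TCACNCCAC was found in Hmgcs1 alone among the 25, 137 bases before the start, and in 1.44% of all genes. No member window held the parts GNACA and TGTNC of a glucocorticoid receptor element 3 bases apart, a spacing found in 0.537% of all genes. Different motifs did not overlap in member windows, although a pair of the 3 CCAAT matches of Fasn share bases on opposite strands, and a match or its lack describes only these letters in these windows. The 2 other windows of Insig2, chr1:121327629-121327928 and chr1:121327975-121328274, held none of the motifs.

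The libraries held between 16020401 and 25638645 reads on genes, and all corticosterone libraries were shallower than the vehicle libraries, with medians of 18259063 and 24337786. The deposited values are normalized counts, the reads of a gene divided by a factor for its library, and a gene with 3 reads had a value between 2.32 and 3.84. Osteoblast identity was present in every library, with Col1a1 between 624028 and 728294 normalized counts. Of 9 osteoblast markers, 8 were lower and 1 higher with corticosterone at an adjusted p under 0.05 with limma. Of all genes with a mean normalized count of at least 100, 15.5% were lower and 17.1% higher. The markers included Runx2 (log2 fold change −1.16), Bglap (−1.87) and Spp1 (0.23). In bulk RNA, fewer cells of a type and less RNA per cell cannot be told apart. Of 2 adipocyte markers measured, Plin1 was at 0 in 5 of 6 libraries, and Fabp4 lay between 7.72 and 21.1 with vehicle and between 108 and 130.5 with corticosterone. Chondrocyte markers, 4 measured, summed to 3543 to 3956 and 2987 to 3017, and the macrophage and blood markers, 3 measured, to 125 to 151 and 127 to 145. Of the chondrocyte markers, Col2a1 and Sox9 were lower and Col10a1 higher by the same rule, with log2 fold changes of −0.80, −0.16 and 0.73. The part of these markers in the results was not tested. The hormone-responsive genes Tsc22d3, Fkbp5 and Per1 had log2 fold changes of 1.49, 2.46 and 2.02.

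Corticosterone moved the synthesis genes by small amounts and in opposite directions. Of the 32 members, 9 were lower and 4 were higher at an adjusted p under 0.05 with limma, and 19 did not pass. Of all 24016 genes, 8.2% were lower and 8.49% higher by that rule. The members are well expressed, 31 of 32 having a mean normalized count of at least 100, and among the 10558 genes at that level 15.5% were lower and 17.1% higher. No member reached an absolute log2 fold change over 1 with limma, edgeR or DESeq2, also at an unadjusted p, while 2.78% of all genes did with limma's adjusted p. The groups did not overlap for 9 members that were lower and 5 that were higher, against 14.9% and 14.7% of all genes. Those shares include genes with few reads and were not computed for the 10558 well expressed genes, so they may be too low a comparison. With 3 libraries against 3 the two-sided exact permutation test cannot go below 0.1, the value it gave for each of these 14 genes.

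**Figure D1:**
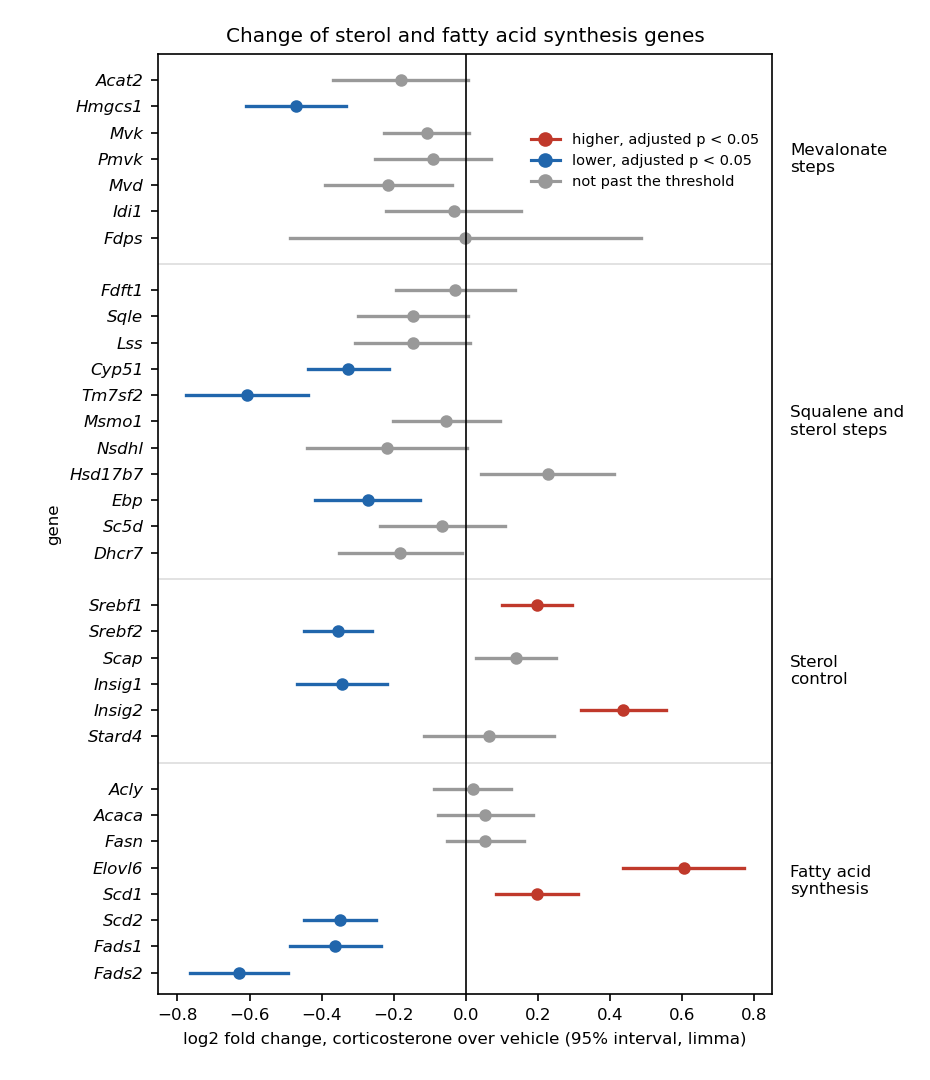
Log2 fold change of corticosterone over vehicle for the 32 genes in pathway order, with the 95% interval from limma as a bar, red and blue marking genes past an adjusted p of 0.05. The sterol enzymes lie mostly left of 0, down to −0.61 for Tm7sf2, while the control and fatty acid genes spread to both sides, from −0.63 for Fads2 to 0.60 for Elovl6.

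Sterol synthesis leaned lower. Of its 18 enzymes, 4 fell (Hmgcs1, Cyp51, Tm7sf2 and Ebp), none rose and 14 did not pass. Among all genes with a mean of at least 100, 15.5% were lower and 17.1% higher. The log2 fold change was below 0 in 17 of 18, with a median of −0.15, against −0.01 over all genes tested. These enzymes varied together among the vehicle libraries, so their signs are not independent. Without vehicle replicate 1, 12 of 18 were below 0, with a median of −0.07, since Idi1, Fdps, Fdft1, Msmo1 and Sc5d turned sign. At an unadjusted p under 0.05, 1 enzyme (Hsd17b7) was higher with each of limma, edgeR and DESeq2. The 7 enzymes up to farnesyl diphosphate had a median of −0.11 with 1 lower, and the 11 from squalene onward a median of −0.15 with 3 lower.

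Hmgcs1 makes HMG-CoA, the substrate from which mevalonate is formed, and was the enzyme of the mevalonate steps that passed the test. Its normalized counts were 1838, 1503 and 1720.1 with vehicle and 1166, 1240.3 and 1236 with corticosterone. All treated libraries lay below all vehicle libraries, the mean fell by 28.0%, and the log2 fold change was −0.47 ± 0.07 (SE, adjusted p = 5.7e-05, limma). An antisense transcript, Gm48342, overlaps 12.1% of the exon bases of Hmgcs1, and reads of the pair cannot be told apart because the library kit is not stated to mark strand.

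The other mevalonate steps did not pass. Acat2, the thiolase that joins acetyl-CoA units, had 1437, 1024 and 1205 with vehicle and 1089.9, 1032 and 1082 with corticosterone, a log2 fold change of −0.18 (adjusted p = 0.21, limma). Mvd, which makes isopentenyl diphosphate, had 488, 428 and 464 against 391.9, 363 and 436, a log2 fold change of −0.21 (adjusted p = 0.096, limma). The groups overlapped in both genes, through vehicle replicate 2 as the lowest vehicle library. For the mevalonate kinase Mvk the log2 fold change was −0.11, with a 95% interval of −0.23 to 0.01, and for Pmvk, the kinase after it, −0.09 (−0.25 to 0.07). The isomerase Idi1 was at −0.03 (−0.22 to 0.15). Fdps, which makes farnesyl diphosphate, was the lowest member, at 39.3 to 66.5 normalized counts, and its interval of −0.49 to 0.49 was too wide to show a change of the size seen in Hmgcs1. In Fdps, 26.7% of exon bases overlap Gm43738 on the same strand, and 43.7% of the 31-base words of Acat2 also occur in other genes, Acat3 among them, so the counts of both are uncertain. The count of Idi1 is uncertain too, since 27.1% of its 31-base words also occur in other genes.

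From lanosterol onward the largest change was in Tm7sf2, a sterol reductase. Its normalized counts were 427, 421 and 401 with vehicle and 259, 293 and 269 with corticosterone. The groups were far apart compared with their spread, the mean fell by 34.3%, and the log2 fold change was −0.61 ± 0.08 (SE, adjusted p = 3.2e-05, limma). Vps51 shares 12.1% of the exon bases of Tm7sf2 on the same strand, so part of these reads could belong to either gene. Cyp51, the lanosterol demethylase and the most abundant sterol enzyme per length, had 3902, 3389 and 3748 with vehicle and 2956, 2804 and 3032 with corticosterone. It fell by 20.4%, with groups that did not overlap and a log2 fold change of −0.33 ± 0.05 (SE, adjusted p = 2.6e-04, limma).

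Ebp, the sterol isomerase, had the smallest decrease to pass. Its values were 675, 782 and 712 with vehicle and 605, 569.9 and 618 with corticosterone, a log2 fold change of −0.27 ± 0.07 (SE, adjusted p = 0.0098, limma). Unlike most of the branch, its highest vehicle library was replicate 2. The adjusted p (limma) was 0.052 without that library, so the call rests partly on it, and it was also lost without vehicle replicate 3 or corticosterone replicate 2, the largest of these being 0.070. In DESeq2 with the replicate number as a block it was 0.068.

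The remaining sterol enzymes did not pass, and their values lay close together. Sqle, the epoxidase that commits squalene to sterols, had 2337, 1817 and 2075 against 1866, 1779 and 1955, a log2 fold change of −0.15 (adjusted p = 0.21, limma). Lss, the cyclase that forms lanosterol, was at −0.15, the dehydrogenase Nsdhl at −0.22 and the late reductase Dhcr7 at −0.18, with adjusted p-values (limma) of 0.23, 0.20 and 0.15. The squalene synthase Fdft1 was at −0.03 (95% interval −0.20 to 0.14), the demethylating oxidase Msmo1 at −0.05 (−0.20 to 0.09) and the desaturase Sc5d at −0.07 (−0.24 to 0.11). In Fdft1, 18.3% of exon bases overlap Ctsb on the opposite strand, and 31.9% of its 31-base words also occur in other genes. Hsd17b7, a ketoreductase of the demethylation steps, was the enzyme above 0. It had 681, 509 and 562 with vehicle and 664, 677 and 695 with corticosterone, overlapping through vehicle replicate 1, with a log2 fold change of 0.23 (adjusted p = 0.092, limma). Without vehicle replicate 1 it was 0.34 (adjusted p = 0.0074, limma), and over all alternatives its adjusted p ran from 0.0074 to 0.38.

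**Figure D2:**
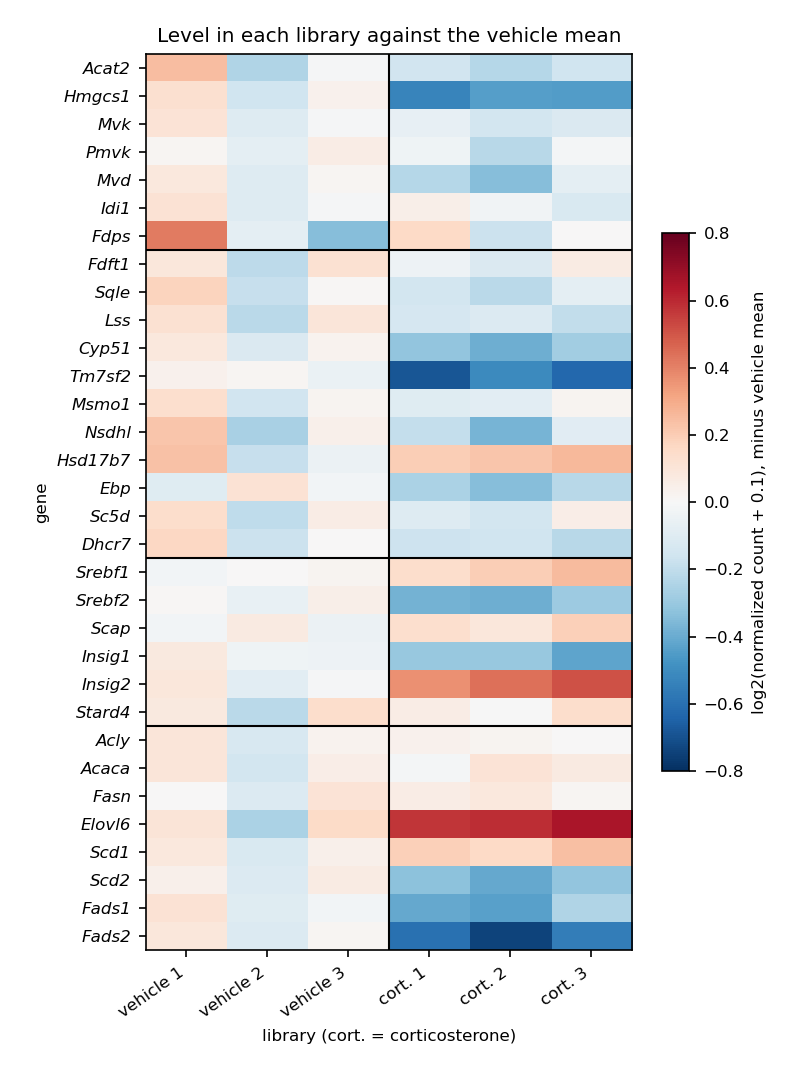
Level of each gene in each library as log2(normalized count + 0.1) minus the vehicle mean, in pathway order, with black lines between mevalonate steps, sterol steps, control and fatty acid genes (cort., corticosterone). Vehicle 1 and vehicle 2 take opposite colours through most sterol enzymes, and vehicle 2 is the lowest vehicle library in all 8 fatty acid genes.

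The sterol enzymes varied together among the vehicle libraries. Vehicle replicate 2 was the lowest of its group in 15 of 18 sterol enzymes (83.3%) and in 8 of 8 fatty acid genes, against 38.7% of the 10558 genes with a mean of at least 100. Vehicle replicate 1 was the highest in 15 of 18, against 35.8% of those genes. Its median deviation from the group mean over the sterol enzymes was 0.13 on the log2 scale and that of replicate 2 was −0.16. The range over the vehicle libraries had a median of 0.31 log2 units in sterol enzymes and 0.14 in all 10558 genes, while with corticosterone the medians were 0.13 and 0.12. In 13 of 18 sterol enzymes the vehicle range exceeded the size of the difference between treatments. Normalized counts summed over the 18 enzymes were 20273, 16821 and 18921 with vehicle and 16334, 15812 and 16773 with corticosterone, so that vehicle replicate 2 lay just above the treated libraries. Without vehicle replicate 2, 8 sterol enzymes were lower in place of 4, as Acat2, Sqle, Lss, Nsdhl and Dhcr7 passed and Ebp did not. What set that library apart was not tested.

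The genes of sterol control split within each pair of relatives. Of 6 genes, Srebf2 and Insig1 fell, Srebf1 and Insig2 rose, and Scap and Stard4 did not pass. The shares over all genes with a mean of at least 100 were 15.5% lower and 17.1% higher. Srebf2 encodes the SREBP form tied mainly to cholesterol genes and Srebf1 the form tied mainly to fatty acid genes. Srebf2 had 4732, 4494 and 4855 normalized counts with vehicle and 3606, 3572 and 3837 with corticosterone. It fell by 21.8%, with groups far apart and a log2 fold change of −0.35 ± 0.04 (SE, adjusted p = 2.2e-05, limma). Srebf1 had 2009, 2041 and 2065 against 2244, 2340.4 and 2424, without overlap. Its increase was small, with a log2 fold change of 0.20 ± 0.05 (SE, adjusted p = 0.0061, limma), and with upper-quartile scaling, which lowered the median of all genes to −0.08, its adjusted p was 0.11.

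The INSIG pair moved in opposite directions by similar amounts. Insig1, itself a target of the SREBP factors in many cells, had 1107, 1025 and 1019.9 with vehicle and 849, 852 and 784 with corticosterone, a log2 fold change of −0.34 ± 0.06 (SE, adjusted p = 4.7e-04, limma). Insig2, whose product also retains SCAP but whose transcription is less tied to SREBP, had 1656, 1465 and 1541 against 1996, 2104 and 2211, a log2 fold change of 0.44 ± 0.06 (SE, adjusted p = 2.3e-05, limma). Neither gene had overlapping groups. Scap was at 1403, 1497 and 1379 with vehicle and 1566, 1518 and 1627 with corticosterone, which did not overlap, but its log2 fold change of 0.14 did not pass (adjusted p = 0.083, limma). Scap did pass with a mean filter of 10 (adjusted p = 0.049, limma), without vehicle replicate 2 (adjusted p = 0.038, limma) and in edgeR (adjusted p = 0.043), and over all alternatives its adjusted p ran from 0.038 to 0.53. An antisense transcript, 5830462I19Rik, covers 13.2% of its exon bases. Stard4, a carrier of cholesterol between membranes, was at 0.06, with a 95% interval of −0.12 to 0.24.

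In the fatty acid branch the enzymes that make palmitate were flat, while those that lengthen or desaturate fatty acids moved in both directions. Of 8 genes, 2 rose (Elovl6 and Scd1), 3 fell (Scd2, Fads1 and Fads2) and 3 did not pass, with a median log2 fold change of 0.04. Over all genes with a mean of at least 100, the shares were 17.1% higher and 15.5% lower. Acly, which supplies cytosolic acetyl-CoA, had 5322, 4571 and 5094 against 5103, 5059.6 and 4997, a log2 fold change of 0.02 with a 95% interval of −0.09 to 0.13. Acaca, the carboxylase that makes malonyl-CoA, was at 0.05 (−0.08 to 0.19). Its count is uncertain, since 33.5% of its 31-base words also occur in other genes. Fasn, the synthase itself, had 5213, 4815 and 5601 against 5424, 5517 and 5249, at 0.05 (−0.05 to 0.16). None of the 3 intervals reached the change of Scd2, Fads1 or Fads2. The sign of all 3 estimates turned with upper-quartile scaling and without vehicle replicate 2.

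Elovl6, which elongates saturated and monounsaturated fatty acids made by the synthase, had the largest increase of the 32 members. Its normalized counts were 1924, 1501 and 1993 with vehicle and 2661, 2699 and 2817 with corticosterone. The mean rose by 50.9%, each treated library lay above every vehicle library, and the log2 fold change was 0.60 ± 0.08 (SE, adjusted p = 3.0e-05, limma). Fads2, the first desaturase of the polyunsaturated pathway, had the largest decrease. It had 1560.1, 1356 and 1478 with vehicle and 968, 877 and 998 with corticosterone, and fell by 35.3%. The groups were far apart, with a log2 fold change of −0.63 ± 0.06 (SE, adjusted p = 1.9e-06, limma).

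Fads1, the desaturase that acts after Fads2, is its neighbour on chromosome 19. By the GRCm38 annotation Fads2 lies at chr19:10062765-10101746 on the minus strand and Fads1 at chr19:10182888-10196877 on the plus strand. Fads1 had 4399.9, 3799 and 3995 with vehicle and 3048, 2998 and 3440.0 with corticosterone, without overlap. Its log2 fold change was −0.36 ± 0.06 (SE, adjusted p = 3.0e-04, limma).

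The stearoyl-CoA desaturases, which form monounsaturated fatty acids, also lie together on that chromosome, Scd2 at chr19:44293674-44306864 and Scd1 at chr19:44394455-44407879. Scd2, the form most abundant here, had 16420.4, 14772 and 16712 with vehicle and 12698, 12028 and 12838 with corticosterone, and fell by 21.6% (log2 fold change −0.35 ± 0.05 SE, adjusted p = 4.3e-05, limma). Scd1 had 2694, 2331 and 2608 against 2899, 2838 and 3001, with a log2 fold change of 0.20 ± 0.05 (SE, adjusted p = 0.016, limma). Both pairs of groups were separate, but the increase of Scd1 was a small step beyond the highest vehicle library. Its call was lost with upper-quartile scaling (adjusted p = 0.12, limma) and when vehicle replicate 2 or 3 or corticosterone replicate 1 or 3 was left out, with adjusted p up to 0.13. Of their 31-base words, 8.18% in Scd1 and 6.81% in Scd2 occur in other genes, Scd3 and each other among them. Summed over the 8 genes, the branch was at 39294, 34632 and 39194 with vehicle and 34432, 33794 and 35071 with corticosterone, of which Scd2 was the largest term, and only vehicle replicate 2 lay within the treated range.

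The 13 calls were also made by edgeR and by DESeq2 on the recovered reads, where all 13 genes kept direction and an adjusted p under 0.05. In limma, 9 of them depended on the variance trend fitted over all genes. Without the trend the fold changes are the same, and Tm7sf2, Srebf2, Insig2 and Fads2 kept an adjusted p under 0.05, between 0.016 and 0.0497, while the other 9 did not. In that fit Hmgcs1 and Insig1 had an adjusted p (limma) of 0.066, Elovl6 0.074, Scd2 0.076, Cyp51 0.10, Fads1 0.12, Srebf1 and Ebp 0.16 and Scd1 0.27. For these 9 genes, they were also the highest adjusted p over the 19 alternatives computed for single genes.

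Ratios within a library do not depend on library scaling, and all 4 pairs of relatives shifted in composition. Insig2 over Insig1 was 1.48 ± 0.0436 with vehicle and 2.55 ± 0.243 with corticosterone (SD, n = 3). Scd2 over Scd1 was 6.28 ± 0.164 and 4.30 ± 0.0733 (SD, n = 3), and Srebf2 over Srebf1 was 2.30 ± 0.0875 and 1.57 ± 0.0414 (SD, n = 3). Fads1 over Fads2 moved less, from 2.77 ± 0.0632 to 3.34 ± 0.164 (SD, n = 3), both genes being lower. No ratio overlapped between the groups. For the Insig, Scd and Srebf pairs this had to follow, since the genes of each pair were already separate in opposite directions. It adds no support beyond the values of the single genes. These ratios are of counts and not per length, and no test beyond those of the separate genes was run.

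**Figure D3:**
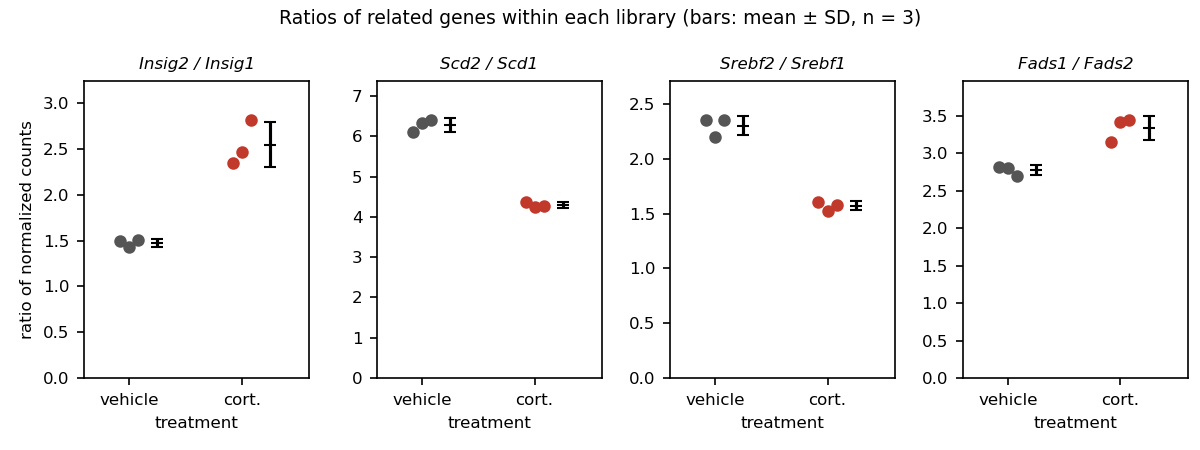
Ratio of the normalized counts of related genes in each library for 4 pairs, with points for libraries, bars for mean ± SD (n = 3) and axes from 0 (cort., corticosterone). The 2 groups are separate in each panel, higher with corticosterone for Insig2 over Insig1 and Fads1 over Fads2 and lower for the other pairs.

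Levels between genes were compared as normalized counts per kilobase of the longest annotated transcript. With vehicle, Scd2 stood first at 2927 ± 192 (SD, n = 3), above Fads1 at 1175 ± 88.6 and Acly at 1129 ± 86.9. Cyp51 led the sterol enzymes at 936 ± 67.0, beside Srebf2 at 925 ± 36.1, and Mvk followed at 740.3 ± 55.0. Fasn, at 518 ± 39.1, was close to Scd1, Acat2 and Hmgcs1. The lowest were Tm7sf2 at 135 ± 4.28, Hsd17b7 at 127 ± 19.1, Stard4 at 116 ± 14.9, Idi1 at 100.1 ± 7.63 and Fdps at 17.3 ± 4.74. Of the 31 pairs of neighbours in this order, 24 had overlapping ranges and cannot be ranked against each other. The separate steps were those after Scd2, Acly, Srebf2, Mvk, Insig1, Acaca and Idi1. With corticosterone, Insig2 per kilobase was at 779.9 ± 39.8 and Srebf2 at 723 ± 28.4, and Elovl6, at 303.5 ± 44.8 with vehicle, was at 458 ± 13.7. With the union of exons as the length, no member moved by more than 5 ranks, and 2 moved by more than 3.

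**Figure D4:**
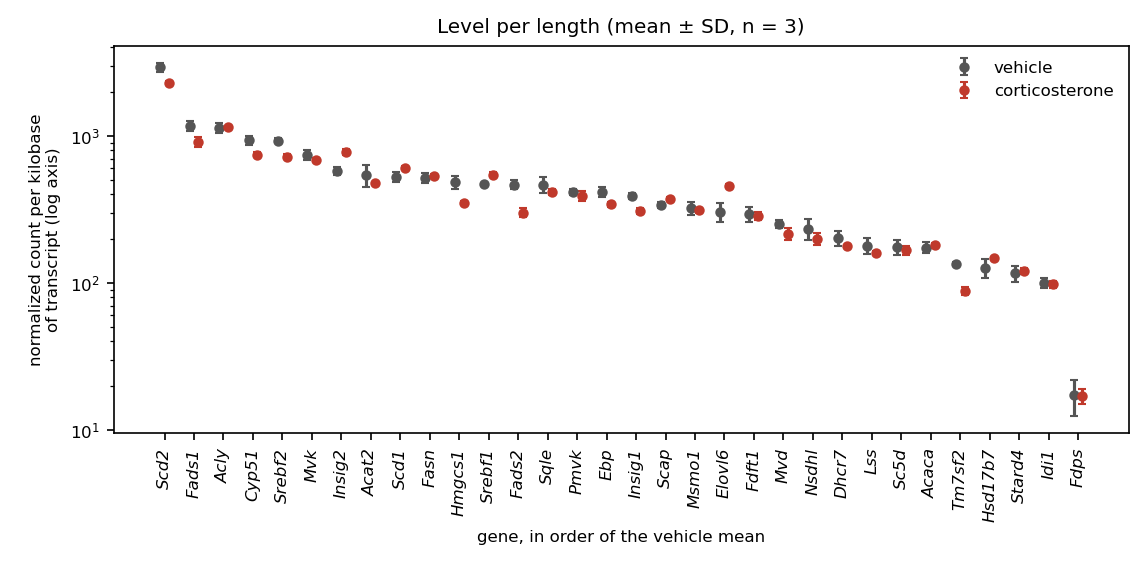
Normalized count per kilobase of transcript for each gene on a log axis, in order of the vehicle mean, with points for means and bars for SD over 3 libraries of each treatment. Scd2 leads at 2927 with vehicle and Fdps is last at 17.3, and treated means lie above vehicle most visibly for Insig2 and Elovl6.

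Other genes of lipid metabolism were counted from lists that, like the members, were chosen with earlier results of these data known. SREBP processing and sterol-regulated degradation had 11 genes, of which 2 were lower, against 15.5% of well expressed genes, and none higher, with a median log2 fold change of −0.04. Sec23a, a coat protein of the vesicles that leave the endoplasmic reticulum, had 2256, 2102 and 2358 against 1703, 1739.5 and 1653 (log2 fold change −0.40, adjusted p = 2.5e-05, limma). Erlin2, part of the machinery that degrades sterol-sensing proteins, was at −0.36 (adjusted p = 1.0e-04, limma).

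Uptake, transport, storage and efflux of cholesterol included called genes with larger changes than any synthesis gene. Of 20 genes measured, 4 were higher and 3 lower, counts near the shares of 17.1% and 15.5% over well expressed genes, with a median of 0.00. Soat1, the enzyme that esterifies cholesterol for storage, had 1738, 1799 and 1706 with vehicle and 3376, 3463 and 3262 with corticosterone, a log2 fold change of 0.95 ± 0.05 (SE, adjusted p = 2.6e-10, limma). The lipoprotein receptor Vldlr had 171, 226 and 204 against 66.4, 78.4 and 60.1, at −1.55 ± 0.15 (SE, adjusted p = 9.0e-07, limma). Both had groups far apart. Lrp1, a large endocytic receptor, was at 0.72, and Mylip, a ligase that removes lipoprotein receptors, at −0.59, both past the threshold.

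The rest of fatty acid synthesis and activation also moved in both directions, with 7 higher and 6 lower of 27 genes measured, against the same 17.1% and 15.5%, and a median of 0.06. The elongase Elovl7 had 1841, 1599 and 1804 against 3209.8, 3151 and 3098 (log2 fold change 0.85, adjusted p = 6.3e-09, limma), and the elongation-cycle dehydratase Hacd2 was at 0.78. The acyl-CoA synthetases Acsl4 and Acsl1 rose by 0.70 and 0.46. The 6 lower genes were Hacd1 at −0.45, Me1 at −0.43, Slc25a1 at −0.34, Fads3 at −0.27, Acsl3 at −0.24 and Tecr at −0.17. The groups overlapped in Hacd1.

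**Figure D5:**
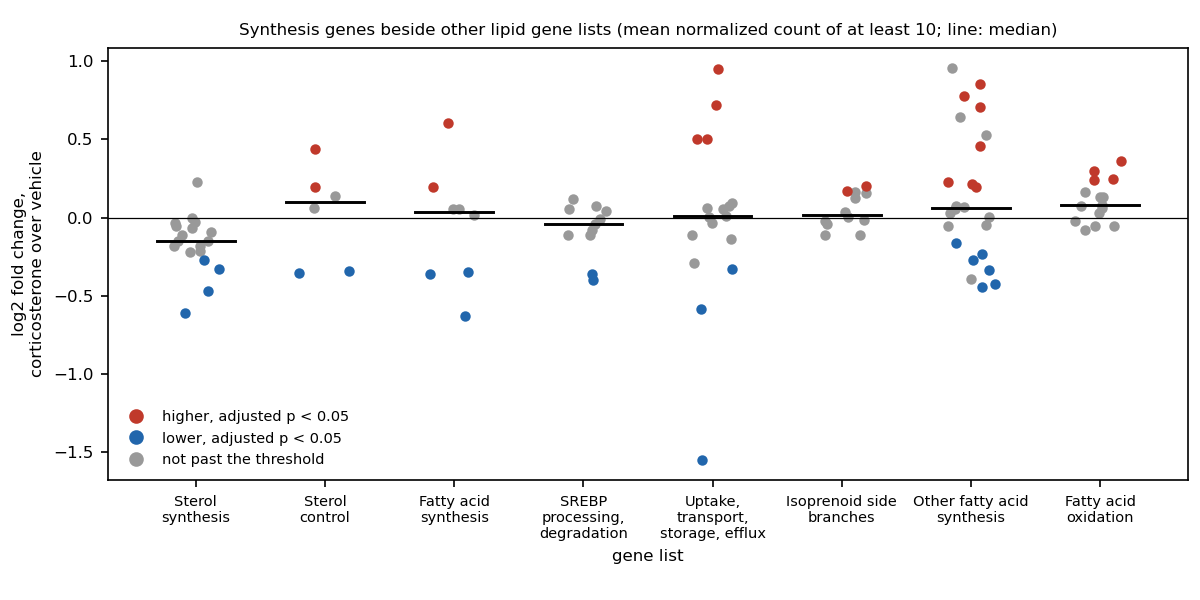
Log2 fold change of the genes in the 3 synthesis groups and in 5 further lipid lists, for genes with a mean normalized count of at least 10, with colour for the call at an adjusted p of 0.05 and a line at each median. The 18 sterol enzymes have a median of −0.15, and the points farthest from 0 that passed are Vldlr at −1.55 and Soat1 at 0.95 in the uptake and storage list.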

How the data were processed

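RNA was sequenced in 3 vehicle and 3 corticosterone libraries, prepared with a NEBNext Ultra RNA kit. The authors deposited a table of gene-level signal per library. It is named FPKM, yet within a library all values are integer multiples of the same step whatever the gene's length (100% whole within 0.01), so the authors divided read counts by a factor per library. The build was mm10 per the submitters' processing notes, and the aligner, counter and annotation are not given in the sources used here. The authors used DESeq2 for their own tests.

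The main test was limma 3.58.1 (R 4.3.3; lmFit and eBayes with a variance trend) on log2(value + 0.1), filtered to means of 0.1 or more, which kept all 24016 genes, with Benjamini-Hochberg adjustment over all of them. The design assumed FPKM and was kept as written. Alternatives left out each library, blocked on the replicate number, dropped the variance trend or made the prior robust, rescaled libraries (upper quartile, equal totals), changed the pseudocount (1, 0.01) or the filter (none, 10), tested against a fold threshold (log2 of 1), or used edgeR 4.0.16 or DESeq2 1.42.0 on the recovered reads. The scripts were tested on simulated data whose planted changes were larger than that of any member. That test does not cover changes of the size seen in the members.

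The members and lists were chosen with earlier results of these data known. Named genes are all 32 members, the cell type markers and the 3 hormone-responsive genes. Each further list adds up to 4 genes with the largest change among those called. For the rest of fatty acid synthesis and activation, all genes called lower are also named. Symbols, lengths and overlaps came from a GENCODE annotation of GRCm38 (24008 of 24016 identifiers matched), shared sequence from words of 31 bases in its transcripts, and promoters from RefSeq. Of the muscle, endothelial and hepatocyte markers, 2 of 4, 1 of 3 and 1 of 3 were measured. They summed to at most 40.7, 7.30 and 2.21 normalized counts in any library. Intervals and the floor of 3 reads cover spread between libraries and counting error only. Protein identity of the related pairs was planned and not run.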

Additional observations from a re-analysis of the deposited data

How the results depend on the processing

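Over the 19 alternatives computed for single genes, the 32 synthesis genes gave 608 values, of which 551 kept direction and side of the threshold, 20 lost the call, 19 gained it and 18 turned sign, the last among 9 genes that were not called. Without the variance trend, 1 sterol enzyme was lower, 0 fatty acid genes were higher and 1 lower, and 1 control gene was higher and 1 lower, and the cause was not tested. With robust prior variance, 1 sterol enzyme was higher. With upper-quartile scaling, 6 sterol enzymes were lower, 1 fatty acid and 1 control gene were higher, and Stard4 (−0.0046), Acly (−0.049), Acaca (−0.014) and Fasn (−0.015) were below 0. Scaling to the same total gave 5 lower sterol enzymes, 1 higher fatty acid gene and Acly at −0.022. These scalings lower every log2 fold change, the median of all genes being −0.08 and −0.05. The replicate numbers pair nothing stated in the labels, and same-numbered libraries had correlations of −0.044, 0.0014 and 0.023 over 13880 genes. The replicate block left all counts of members as they were in limma, with 591 genes past the adjusted p and the fold of 1 against 668 without it. In edgeR with the replicate block, 8 sterol enzymes were lower and 1 higher, and in DESeq2 with it 3 sterol enzymes were lower, Ebp not passing, and 437 genes passed in all. The cause was not tested. Against a log2 fold change of 1, 147 genes passed, a stricter test by construction. With 1 library left out at a time, lower sterol enzymes numbered 3 to 8, higher ones 0 to 1 and higher fatty acid genes 1 to 2. The log2 fold change then lay between −0.086 and 0.023 for Idi1, −0.17 and 0.21 for Fdps, −0.13 and 0.030 for Fdft1, −0.13 and 0.012 for Msmo1, −0.17 and 0.0054 for Sc5d, −0.045 and 0.13 for Stard4, −0.043 and 0.066 for Acly, −0.020 and 0.10 for Acaca, and −0.0022 and 0.11 for Fasn.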

Other observations

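Isoprenoid side branches, the enzymes that use intermediates of the mevalonate steps for ubiquinone, dolichol and protein prenylation, had 2 genes higher and none lower of 12, against 17.1% higher and 15.5% lower of well expressed genes, with a median log2 fold change of 0.02. Zmpste24, the protease that trims prenylated proteins, had 1117, 1010.3 and 1018 normalized counts with vehicle and 1178, 1260.2 and 1181 with corticosterone (log2 fold change 0.20, adjusted p = 0.021, limma). Nus1, a subunit of the enzyme that builds dolichol, was at 0.17 (adjusted p = 0.015, limma). Both calls were lost under several alternatives, with adjusted p up to 0.22 and 0.31.

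Fatty acid oxidation had 4 genes higher and none lower of 16, against the same 17.1% and 15.5%, with a median of 0.08. Eci1, an isomerase for unsaturated acyl chains, had 858, 802 and 783 with vehicle and 1085, 979 and 1075 with corticosterone (log2 fold change 0.36, adjusted p = 3.9e-04, limma). The mitochondrial thiolase Acaa2 was at 0.30, the very-long-chain dehydrogenase Acadvl at 0.25 and the isomerase Ech1 at 0.24, all with groups that did not overlap. None of the 4 kept its call without the variance trend, where adjusted p lay between 0.069 and 0.19. Acaa2, Acadvl and Ech1 also lost it with upper-quartile scaling and without vehicle replicate 3 or corticosterone replicate 3, Acaa2 and Ech1 without corticosterone replicate 2, Acaa2 without vehicle replicate 1, and Acadvl without corticosterone replicate 1.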
